A study of Mus musculus with 9 samples.

Results

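The enzymes described here are 33 mouse genes chosen by name for their known steps in the pentose phosphate pathway and in the synthesis of nucleotides, out of 49315 gene identifiers in the count table. They comprise 7 enzymes of the pentose phosphate pathway, 2 phosphoribosyl pyrophosphate (PRPP) synthetases, 9 enzymes of purine synthesis, 5 of pyrimidine synthesis, 9 that make or protect deoxynucleotides, and the nucleoside diphosphate kinase gene Nme1. The choosing rule uses no measured value, but it was made with earlier results of these data known. All 33 were found in the table and all 33 passed the filter on low counts, which left 18211 genes tested. The lowest raw count of any of them in any library was 178 (Dctpp1), and the highest was 32980 (Paics).

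RNA was measured in pancreatic stellate cells, the fibroblast-like cells of the pancreas, from C57BL6 mice. The cells were a line that had become immortal by spontaneous outgrowth. All groups carried Cas9 delivered by lentivirus together with a guide RNA, were selected with puromycin and were not cloned, so each guide gave a mixed population in which unedited cells may remain. The 3 groups, of 3 libraries each, were cells with the control guide R26-sg1 at 20% oxygen (R26 normoxia), the same cells at 0.5% oxygen (R26 hypoxia), and cells with the guide HIF1a-sg2 at 0.5% oxygen (HIF1a-ko hypoxia), all for 48 h. Cells with the HIF1a guide at 20% oxygen were not analysed here, so an effect of that guide outside low oxygen cannot be told apart from its effect in low oxygen. Whether a group's libraries were grown as separate cultures is not in the labels. The p-values therefore measure the spread between these libraries, which may be technical.

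The pentose phosphate pathway branches off glycolysis at glucose-6-phosphate. Its oxidative arm yields NADPH, the reducing agent for biosynthesis and antioxidant defence, and its non-oxidative arm exchanges sugar phosphates so that ribose-5-phosphate can be drawn from either side. Ribose-5-phosphate is activated to PRPP, on which the purine ring is built step by step and to which the pyrimidine ring is attached after it has closed. Ribonucleotide reductase then turns ribonucleotides into the deoxynucleotides used for DNA, while thymidylate synthase and the nucleoside kinases supply the building block that is particular to DNA. HIF-1alpha, the protein encoded by Hif1a, is the oxygen-regulated subunit of a transcription factor that is best known for raising glycolytic enzymes when oxygen is low.

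Libraries held between 43837809 and 107840223 counts, with 24622 to 26635 genes detected. In each group 1 library was deeper than the rest (R26 normoxia replicate 3, R26 hypoxia replicate 3 and HIF1a-ko hypoxia replicate 1, each with at least 88451200 counts), and these 3 lay apart from the other 6 on the first principal component, which held 43.8% of the variance. The targeted gene, Hif1a, was at 194, 192.4 and 224.8 CPM (counts scaled to a common library size) across R26 normoxia, 177.8, 168.7 and 207.1 in R26 hypoxia, and 123.3, 116.9 and 125 in HIF1a-ko hypoxia. The knockout libraries lay below all R26 libraries, and Hif1a was 1.52-fold lower in HIF1a-ko hypoxia than in R26 hypoxia (log2 fold change -0.60 ± 0.09 (SE), edgeR adjusted p = 0.000358). Between the control groups it did not pass (-0.14, adjusted p = 0.279). It passed there with depth class as a term (-0.14, adjusted p = 0.0425) and with a replicate block in a fit of those 2 groups (-0.12, adjusted p = 0.0173), and not with the block over all 9 libraries (adjusted p = 0.087). A small insertion or deletion need not remove a transcript, so this level does not measure how many cells were edited.

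Markers of the labelled cells and of other cell types were read beside the enzymes. Of 12 stellate cell and fibroblast markers, 9 were at 1 CPM or more in every library, and Des, Lum and Fap were low. Their summed level was 17546.2 to 19255.6 CPM in R26 normoxia, 19781.4 to 21322.6 in R26 hypoxia and 13481.2 to 13943.8 in HIF1a-ko hypoxia, so it moved with the groups. Single markers did not all follow the sum. In R26 hypoxia against R26 normoxia 4 of the 12 rose, while Acta2 fell 1.93-fold (adjusted p = 4.45e-05) and Dcn 2.1-fold (adjusted p = 0.000159). Between HIF1a-ko hypoxia and R26 hypoxia 5 of the 12 fell, Pdgfra most (3.24-fold, adjusted p = 5.33e-08), and 6 did not pass. Acta2 rose 1.45-fold there (adjusted p = 0.000306). Single markers of other types are named here because of their values. The 8 epithelial markers summed to 52.9 to 103.9, 92 to 150.5 and 55.5 to 96.7 CPM in the 3 groups in the same order. Among them Krt19 and Muc1 rose 2.86-fold and 2.39-fold in R26 hypoxia against R26 normoxia (adjusted p = 0.00931 and 0.000794). Both were lower in HIF1a-ko hypoxia than in R26 hypoxia, 3.08-fold and 2.76-fold (adjusted p = 0.00305 and 9.84e-05). The other 6 of the 8 did not pass in either comparison. In the first they lay on both sides of 0, from -0.71 (Cdh1) to 0.49 (Krt18) in log2 fold change. Krt8 split with depth, at 0.0225 CPM or less in the 3 deeper libraries and 15.3 to 23.7 in the 6 shallower ones. The 9 leukocyte markers summed to 10.7 to 20 CPM in the deeper libraries and 39.6 to 64.1 in the shallower ones. The 6 endothelial markers summed to 11.3 to 18, 9.31 to 16.8 and 13.8 to 23 CPM in the 3 groups. Between HIF1a-ko hypoxia and R26 hypoxia Kdr rose 2.25-fold (adjusted p = 0.0271) and Egfl7 1.94-fold (adjusted p = 0.00172), while Vwf fell 1.64-fold (adjusted p = 0.0172). Of the 9 acinar and islet genes, Prss1, Amy2a2, Ins1 and Ins2 were at 0 in every library and Gcg reached 1.73 CPM. Cela1, at 9.86 to 12.7 CPM in the R26 libraries, was 2.33-fold lower in HIF1a-ko hypoxia than in R26 hypoxia (adjusted p = 2.56e-05), and Cpb1, at 1.19 CPM or less, 4.24-fold lower (adjusted p = 0.000438). The part of these markers in the results on the enzymes was not tested. In bulk RNA, fewer cells with a transcript and less of it per cell cannot be told apart.

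In the control cells at low oxygen, part of the nucleotide enzymes fell and no pentose phosphate enzyme was called in the fit by group alone. Between R26 hypoxia and R26 normoxia, 2 of the 33 genes rose, 14 fell and 17 did not pass the test (edgeR's quasi-likelihood test across all genes, Benjamini-Hochberg adjusted p under 0.05). Over all genes tested, 12.8% rose and 12.4% fell. The median log2 fold change was -0.14 over the enzymes and -0.01 over all genes. The falls were small: 3 of the 14 reached 1.5-fold (Gart, Rrm2 and Nme1). Same-numbered libraries of these groups correlated in their deviations from the group means at 0.48, 0.53 and 0.855, and the shallower libraries with unlike numbers did so at 0.498 and 0.587, so the numbers do not stand apart from depth. A fit of these 2 groups alone that blocked on the number had 4 genes that rose and 16 that fell, adding Pgls (0.15, adjusted p = 0.023), Rpe (0.14, adjusted p = 0.0465), Pgd (-0.11, adjusted p = 0.0342) and Dctpp1 (-0.78, adjusted p = 0.00225). That fit also called more of all genes, with 3843 higher and 3416 lower of 17387. When the fit of all libraries also held their depth class, 2 rose and 17 fell, adding Dctpp1, Pgd (-0.13, adjusted p = 0.0463) and Tkt (-0.12, adjusted p = 0.038). Over all 18211 genes this fit called 3405 higher and 3554 lower, against 2328 and 2263 in the fit by group alone.

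Cells with the HIF1a guide held more of most of these transcripts than control cells at the same low oxygen. Between HIF1a-ko hypoxia and R26 hypoxia, 25 of the 33 genes rose, 4 fell and 4 did not pass, against 22% of all genes that rose and 23.8% that fell. The median log2 fold change was 0.74 over the enzymes and -0.02 over all genes, and 20 of the 25 rises were at least 1.5-fold. The 4 that fell were G6pdx, Tkt, Ctps2 and Impdh1. Against the control at 20% oxygen, HIF1a-ko hypoxia had 24 genes higher, 4 lower and 5 that did not pass, with 19.5% of all genes higher and 21.9% lower, and a median of 0.39 over the enzymes. Of these 24 rises, 11 were at least 1.5-fold. How many of all genes reached 1.5-fold was not counted in any comparison, so the counts at that fold have no background. The 3 comparisons share libraries pairwise, so their values stand side by side and are not independent of each other.

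**Figure D1:**
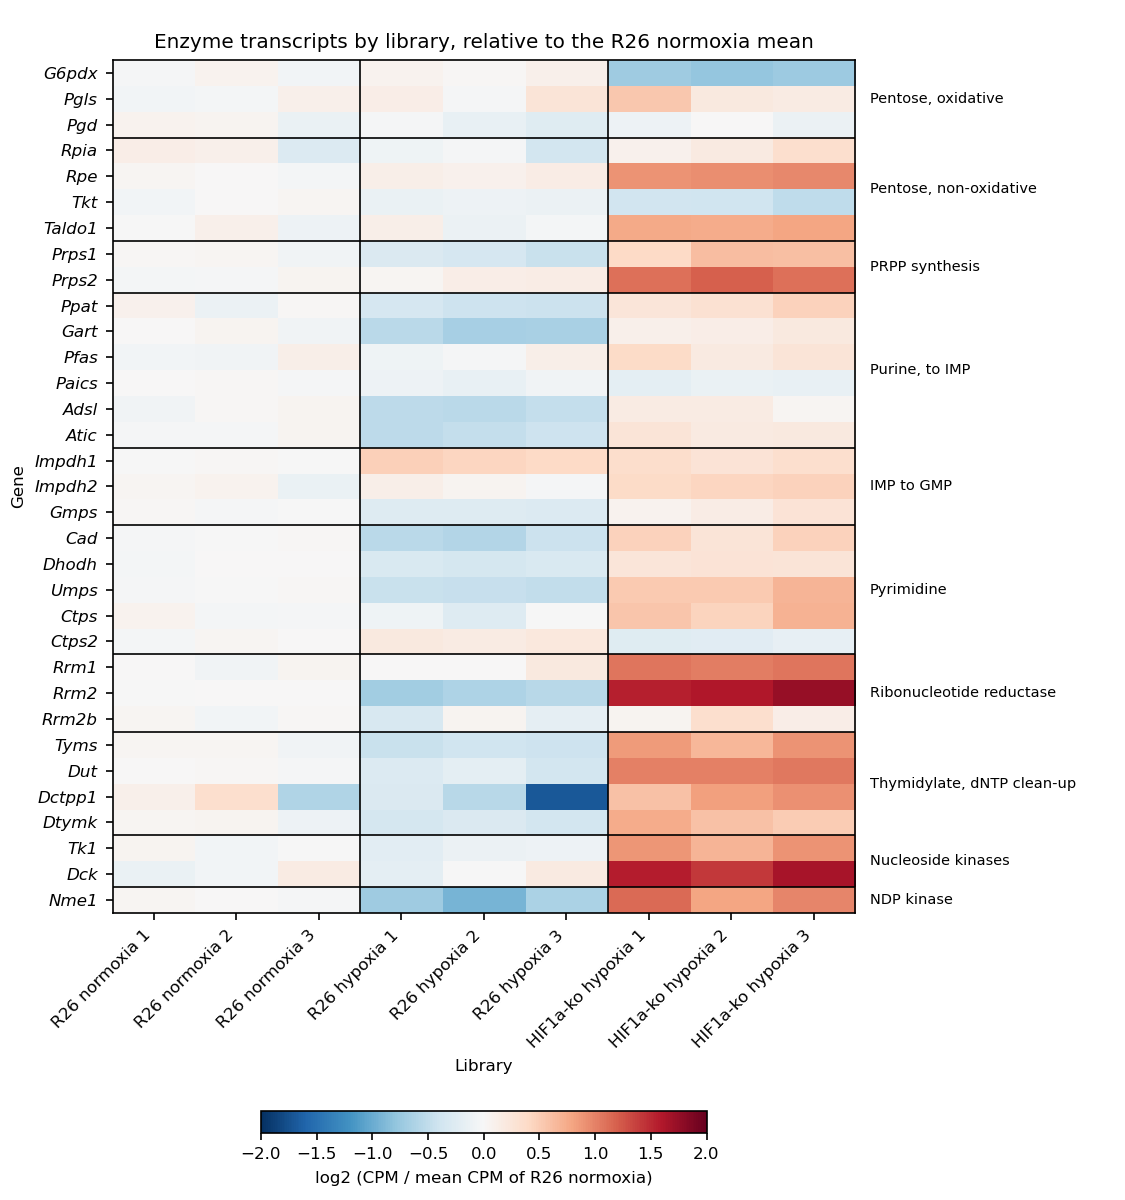
Heat map of the 33 transcripts (rows, grouped by step) in the 9 libraries (columns); colour is log2 of the CPM over the R26 normoxia mean. The HIF1a-ko hypoxia columns are red for most rows from Prps1 down, most strongly for Rrm2 and Dck, and blue for G6pdx, Tkt and Ctps2; the Dctpp1 row is darkest blue in R26 hypoxia replicate 3, a deeper library.

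**Figure D2:**
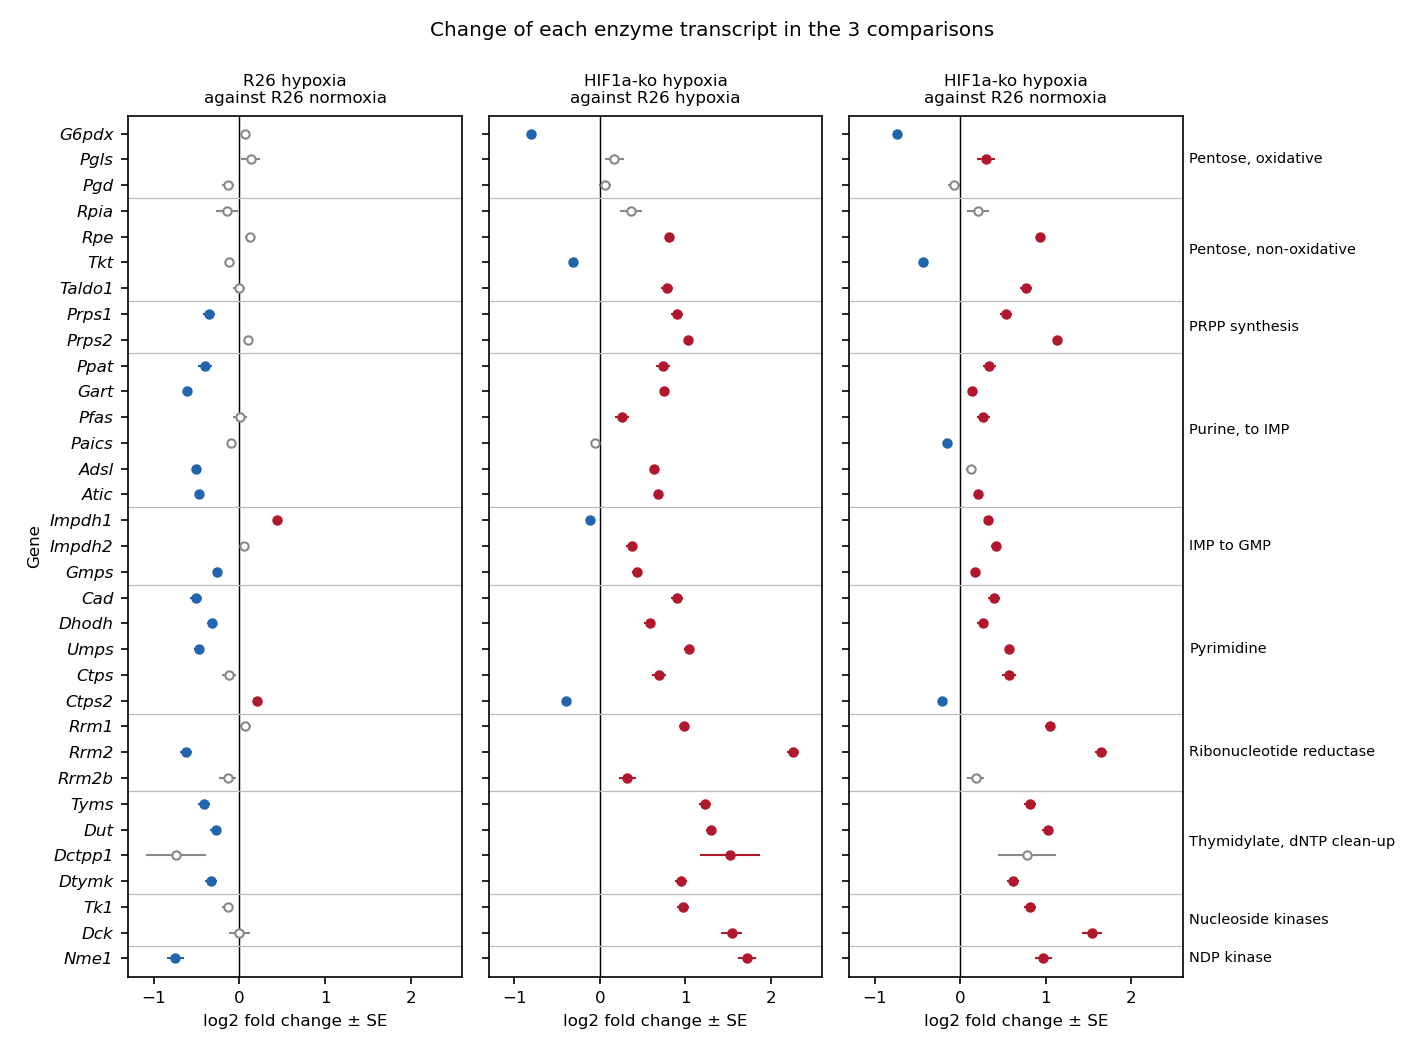
Log2 fold change (horizontal axis) with its standard error for each of the 33 genes in the 3 comparisons; filled points passed edgeR's test (red higher, blue lower) and open grey points did not. In the middle panel 25 genes lie to the right of 0 as called rises and 4 to the left as called falls, with Rrm2 farthest right at 2.26.

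Since many of the 33 genes rose in HIF1a-ko hypoxia, their start regions were searched for short words. RefSeq start windows on GRCm38.p6, from 250 bases before to 50 after a gene's start, were matched to 30 of the 33 genes by symbol. Dhodh, Pfas and Rrm2b had no entry. The windows had a median GC content of 60.8% for the enzymes and 52.7% for all. The part of GC content in the shares below was not tested. Those shares are set against every gene with a window, whether or not it was tested here. The word CACGTG, which is its own reverse complement and is the E-box read by MYC and its relatives, was in a window of 6 of the 30 genes (20%) and of 8.09% of 27025 genes. These 6 are shown, 5′ to 3′ on the strand of the gene, with the word in capitals, since they cover a purine, a GMP, a thymidylate and a diphosphate kinase step; windows in or at an annotated exon are limited to 30 bases.
Tyms: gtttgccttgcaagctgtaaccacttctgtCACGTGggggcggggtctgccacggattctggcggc
Dtymk: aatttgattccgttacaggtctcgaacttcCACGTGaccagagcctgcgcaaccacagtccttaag
Nme1: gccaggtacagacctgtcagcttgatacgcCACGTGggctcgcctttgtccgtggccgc
Nme1, other start: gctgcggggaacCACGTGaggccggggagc
Atic: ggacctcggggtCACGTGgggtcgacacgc
Impdh2: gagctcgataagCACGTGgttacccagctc
Paics: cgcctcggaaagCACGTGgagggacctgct

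They lie at chr5:30073651-30073716 (Tyms, minus strand), chr1:93802047-93802112 (Dtymk, minus), chr11:93968026-93968084 and chr11:93968273-93968302 (Nme1, minus), chr1:71557137-71557166 (Atic, plus), chr9:108560314-108560343 (Impdh2, plus) and chr5:76951087-76951116 (Paics, plus). The word stood 61 bases before the start in Tyms, 148 in Dtymk, 7 in Atic, 110 in Impdh2 and 203 in Paics. Of these 6 genes, Tyms, Dtymk, Nme1, Atic and Impdh2 rose in HIF1a-ko hypoxia against R26 hypoxia, and Paics did not pass the test. Rrm2, with the largest rise in that comparison, and Dck did not hold the word in their windows.

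The shorter word ACGTG, the core of the element that HIF binds, lies inside CACGTG and was counted on both strands. It was in 10 of the 30 genes (33.3%) and in 21.8% of all genes, and 4 of the 10 (Cad, Dctpp1, G6pdx and Impdh1) held it without CACGTG. The other form of that core, GCGTG, was in 20 genes (66.7%) against 35.2% of all genes, in windows whose median GC content was 60.8% for the enzymes and 52.7% for all. The 4 words TTTGGCGC, TTTCCCGC, TTTCGCGC and TTTGCCGC, spellings of the site of the cell cycle factor E2F, were in 2 genes (6.67%) against 2.6% of all. They are shown because they stand in the genes of consecutive steps, PRPP synthesis and the first step that uses PRPP for purines.
Prps2: tgctgctgcgtTTTCCCGCttcaccagc
Ppat: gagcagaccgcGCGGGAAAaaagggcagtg
Ppat, nearer the start: aggatcagaggGCGGGAAAgggaggtgcaa

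The Prps2 word is at chrX:167382700-167382727 (minus strand), after the start, and the Ppat words are at chr5:76951771-76951800 and chr5:76951718-76951747 (minus strand), in reverse complement. CCAAT was in 13 of 30 genes (43.3%) and 41.1% of all. A match is a string of letters and was not tested as a binding site.

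The 3 genes of the oxidative arm of the pentose phosphate pathway differed in their calls. Coordinates here and below are those of the gene in GENCODE M21 on GRCm38, where all 33 are annotated as protein coding. G6pdx (glucose-6-phosphate dehydrogenase, the first and rate-limiting step and a source of NADPH; chrX:74409483-74429194) was at 109.8, 117.4 and 108 CPM across R26 normoxia, 117.4, 113.1 and 120.1 in R26 hypoxia, and 68.4, 65 and 67.7 in HIF1a-ko hypoxia. The control libraries overlapped between oxygen levels, and all 3 knockout libraries lay far below them. It was 1.74-fold lower in HIF1a-ko hypoxia than in R26 hypoxia (log2 fold change -0.80 ± 0.05 (SE), edgeR adjusted p = 1.01e-06), the largest fall among the 33 genes, and 1.67-fold lower than in R26 normoxia (adjusted p = 2.38e-06). Part of its exons (418 bases) overlaps exons of Ikbkg on the opposite strand, whose reads cannot be told apart without strand. Pgd, the second NADPH-yielding dehydrogenase, did not pass in any comparison, with group means within 0.13 of each other on the log2 scale. Pgls, the lactonase between them, rose in HIF1a-ko hypoxia against R26 normoxia (0.30 ± 0.11 (SE), adjusted p = 0.0488). That call was lost when any of R26 normoxia replicate 1 or 2, R26 hypoxia replicate 1 or HIF1a-ko hypoxia replicate 1 was left out (adjusted p 0.0664 to 0.139). Without HIF1a-ko hypoxia replicate 1, its highest library at 89.5 CPM, the change was 0.19. Fam129c shares 776 exon bases with Pgls on the same strand.

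In the non-oxidative arm, Rpe and Taldo1 rose while Tkt fell. Taldo1 (transaldolase, which moves 3-carbon units between sugar phosphates; chr7:141392199-141402968) was at 49.9, 53.7 and 46.8 CPM across R26 normoxia, 54.2, 46.1 and 49 in R26 hypoxia, and 84.7, 84.1 and 86.6 in HIF1a-ko hypoxia. The control groups overlapped, and the knockout libraries stood together above both. Its log2 fold change was -0.01 ± 0.07 between R26 hypoxia and R26 normoxia (adjusted p = 0.945) and 0.78 ± 0.07 between HIF1a-ko hypoxia and R26 hypoxia (1.71-fold higher, edgeR adjusted p = 1.53e-05). Rpe, the epimerase that interconverts ribulose and xylulose phosphates, was at 26.9 to 28.4 CPM across R26 normoxia, 29.4 to 30.7 in R26 hypoxia and 51.6 to 53.7 in HIF1a-ko hypoxia. It rose 1.76-fold against R26 hypoxia (adjusted p = 8.01e-07), and 558 of its exon bases overlap Kansl1l on the opposite strand. Tkt, the transketolase that works opposite transaldolase, was at 179.5 to 190.1, 169.7 to 172.7 and 130.5 to 142.7 CPM in the same order of groups, and fell 1.24-fold against R26 hypoxia (adjusted p = 0.000465) and 1.35-fold against R26 normoxia (adjusted p = 6.76e-05). Rpia, the isomerase that forms ribose-5-phosphate, was at 11.8 to 15 CPM in R26 hypoxia and 16.2 to 19.4 in HIF1a-ko hypoxia, which do not overlap, but missed the threshold (0.36 ± 0.13, adjusted p = 0.051). It passed with DESeq2 (adjusted p = 0.0194), and with R26 normoxia replicate 3 left out (adjusted p = 0.0205). In edgeR it also passed with DESeq2 size factors (adjusted p = 0.042), no filter (0.0383) and the fit of 2 groups (0.0481). With depth class as a term and in the 6 shallower libraries it passed as well (adjusted p = 0.000501 and 0.00693).

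Both PRPP synthetases rose with the HIF1a guide. Prps2 (chrX:167346322-167382749) was at 43.8, 44 and 46.7 CPM across R26 normoxia, 45.8, 48.9 and 49.8 in R26 hypoxia, and 96, 102.6 and 95.7 in HIF1a-ko hypoxia, where every library was far above the control range. The change against R26 hypoxia was 2.04-fold (1.03 ± 0.05 (SE), edgeR adjusted p = 4.38e-07). Its paralog Prps1 fell in the control cells at low oxygen, from 22.2 to 23.9 CPM down to 17 to 19 (-0.36 ± 0.07, adjusted p = 0.00698), and rose 1.87-fold to 30.6 to 35.5 CPM in the knockout at the same oxygen (adjusted p = 9.43e-06). Exon length, here and below, is that of all annotated exons of a gene merged, so the level of a share depends on the annotation. Per exon length, the Prps1 share of the pair was 50.1% ± 1.83 (SD, n = 3) in R26 normoxia, 42.2% ± 2.34 in R26 hypoxia and 40.1% ± 1.75 in HIF1a-ko hypoxia.

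The 6 enzymes that build inosine monophosphate (IMP) from PRPP did not all follow the same course. In R26 hypoxia against R26 normoxia, 4 of the 6 fell and 2 did not pass. In HIF1a-ko hypoxia against R26 hypoxia, 5 rose and 1 did not pass. Over all genes, 12.4% fell in the first comparison and 22% rose in the second. Gart, which carries 3 catalytic activities of the pathway (chr16:91621186-91646952), was at 65.6, 67.4 and 62.4 CPM across R26 normoxia, 45, 41.1 and 41.8 in R26 hypoxia, and 70.1, 71.2 and 74.4 in HIF1a-ko hypoxia. The R26 hypoxia libraries lay below all others, and the knockout libraries lay just above the 20% oxygen controls. Gart fell 1.53-fold in R26 hypoxia (-0.61 ± 0.05, edgeR adjusted p = 5.48e-05) and was 1.69-fold higher in HIF1a-ko hypoxia than in R26 hypoxia (adjusted p = 2.7e-06). Its rise over R26 normoxia was 0.14 (adjusted p = 0.0479) and was lost when any library other than R26 hypoxia replicate 1 or HIF1a-ko hypoxia replicate 1 was left out (adjusted p 0.0544 to 0.103). Gm15964, on the opposite strand, overlaps 1014 bases of the Gart exons.

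Atic, which closes the purine ring, was at 99.8 to 105.4 CPM across R26 normoxia, 70.9 to 76.7 in R26 hypoxia and 115.2 to 122.3 in HIF1a-ko hypoxia, with no overlap between any of the groups. It fell 1.38-fold in R26 hypoxia (adjusted p = 0.000127) and was 1.6-fold higher in HIF1a-ko hypoxia than there (adjusted p = 2.64e-06). Adsl, the lyase that acts in this branch and again in making AMP, fell 1.42-fold in R26 hypoxia (adjusted p = 0.000195) and rose 1.55-fold from there in HIF1a-ko hypoxia (adjusted p = 1.25e-05). Adsl did not pass between HIF1a-ko hypoxia and R26 normoxia (0.12, adjusted p = 0.0985), and did without HIF1a-ko hypoxia replicate 3 (0.20, adjusted p = 0.0202). Ppat, the committed step that the pathway's end products inhibit, fell 1.32-fold (adjusted p = 0.00565) and rose 1.67-fold (adjusted p = 4.98e-05) in the same comparisons. Paics, the enzyme of the carboxylation step, had the highest level of the 33 per exon length, at 104 ± 1.77 CPM per kb (SD, n = 3) in R26 normoxia. It was at 328.5, 330.8 and 320.3 CPM across R26 normoxia, 303.2, 295.9 and 311.8 in R26 hypoxia, and 284.3, 296.3 and 296 in HIF1a-ko hypoxia. The last 2 groups overlap. Paics did not pass against R26 hypoxia (-0.06 ± 0.04, adjusted p = 0.318), and its fall against R26 normoxia (-0.16, adjusted p = 0.012) did not pass without HIF1a-ko hypoxia replicate 1 (adjusted p = 0.0698). Paics and Ppat lie head to head on chromosome 5 with exons that overlap over 272 bases on opposite strands. Pfas, which adds the amide nitrogen, was within 0.01 of its R26 normoxia level in R26 hypoxia. Its rise in HIF1a-ko hypoxia over R26 hypoxia (0.26 ± 0.08, adjusted p = 0.0201) was lost without R26 hypoxia replicate 1 or 2 or HIF1a-ko hypoxia replicate 1 (adjusted p 0.0627 to 0.0696). Over R26 normoxia its rise (0.27, adjusted p = 0.0187) was lost without R26 normoxia replicate 1 or 2 (0.0693 and 0.0691).

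From IMP to GMP, the paralogs Impdh1 and Impdh2 differed in which comparisons they passed. Impdh1, one of the isoenzymes of the rate-limiting dehydrogenase of this step (chr6:29200434-29216364), was at 36.2, 37 and 36.4 CPM across R26 normoxia, 50.7, 49.4 and 48.3 in R26 hypoxia, and 46.5, 44.1 and 45.9 in HIF1a-ko hypoxia. Every library of both hypoxic groups was above every R26 normoxia library. It rose 1.35-fold in R26 hypoxia (0.44 ± 0.04, edgeR adjusted p = 0.000132), the largest rise of the 33 in that comparison. Its small fall from R26 hypoxia to HIF1a-ko hypoxia (-0.12, adjusted p = 0.0449) was lost with DESeq2 (adjusted p = 0.157) and with each library left out except R26 hypoxia replicate 3 (adjusted p 0.0606 to 0.148). Impdh2 was at 138.8 to 159.8 CPM across R26 normoxia, 150.1 to 165.1 in R26 hypoxia and 198 to 208.2 in HIF1a-ko hypoxia. It rose 1.29-fold in the knockout over R26 hypoxia (adjusted p = 0.000861), but 39.3% of its 50-base words also occur in the pseudogene Impdh2-ps, so its counts are uncertain where reads were split. The Impdh1 share of the pair per exon length was 18.4% ± 1.09 (SD, n = 3) in R26 normoxia, 22.7% ± 0.411 in R26 hypoxia and 17.3% ± 0.652 in HIF1a-ko hypoxia. Gmps, which aminates the product to GMP, fell 1.2-fold in R26 hypoxia (adjusted p = 0.00567) and was 1.35-fold higher in HIF1a-ko hypoxia than there (adjusted p = 0.000113). Its rise over R26 normoxia (0.17, adjusted p = 0.0264) was lost without R26 normoxia replicate 1 or 2 or HIF1a-ko hypoxia replicate 2 (adjusted p 0.0542 to 0.0814).

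Of the pyrimidine enzymes, Cad, Dhodh and Umps all fell in R26 hypoxia and all rose in HIF1a-ko hypoxia, against R26 hypoxia and against R26 normoxia. Umps, the bifunctional enzyme that attaches PRPP and releases UMP (chr16:33954782-33967038), was at 26.2, 26.4 and 27 CPM across R26 normoxia, 19.4, 19.3 and 18.9 in R26 hypoxia, and 37.9, 38.2 and 42.3 in HIF1a-ko hypoxia. The groups were separate, each with a narrow spread. Umps fell 1.38-fold (-0.47 ± 0.06, edgeR adjusted p = 0.000353) and was 2.06-fold higher in HIF1a-ko hypoxia than in R26 hypoxia (1.04 ± 0.06, adjusted p = 6.58e-07). Cad, the trifunctional enzyme that commits carbon to the ring, was at 59.1 to 61.4, 40.2 to 44.9 and 71.7 to 83 CPM in the same order of groups, a 1.42-fold fall (adjusted p = 0.000588) and a 1.87-fold rise (adjusted p = 4.43e-06). Dhodh, the mitochondrial dehydrogenase that hands electrons to the respiratory chain, had the lowest level per exon length of the 33 (1.75 ± 0.0327 CPM per kb in R26 normoxia). It fell 1.25-fold (adjusted p = 0.00498) and rose 1.49-fold (adjusted p = 5.02e-05).

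The CTP synthetases, which turn UTP into CTP, moved in opposite directions. Ctps2 (chrX:162901238-163032508) was at 75.6, 79.7 and 77.7 CPM across R26 normoxia, 89.2, 87.4 and 90.1 in R26 hypoxia, and 65.7, 66.6 and 69.7 in HIF1a-ko hypoxia. Ctps was at 53.8, 49.9 and 50.3 CPM, then 48.2, 42.7 and 51.1, then 75.7, 69.9 and 83.1. Ctps2 was highest, and in a group of its own, in R26 hypoxia, while Ctps was highest in HIF1a-ko hypoxia and overlapped between the control groups. Ctps2 rose 1.14-fold in R26 hypoxia (0.20 ± 0.04, adjusted p = 0.00662) and was 1.32-fold lower in HIF1a-ko hypoxia than there (-0.40 ± 0.04, adjusted p = 3.3e-05), where Ctps was 1.61-fold higher (0.69 ± 0.08, adjusted p = 9.58e-05). The Ctps share of the pair per exon length was 48.5% ± 1.65 (SD, n = 3) in R26 normoxia, 43.1% ± 1.85 in R26 hypoxia and 61.6% ± 1.56 in HIF1a-ko hypoxia.

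**Figure D3:**
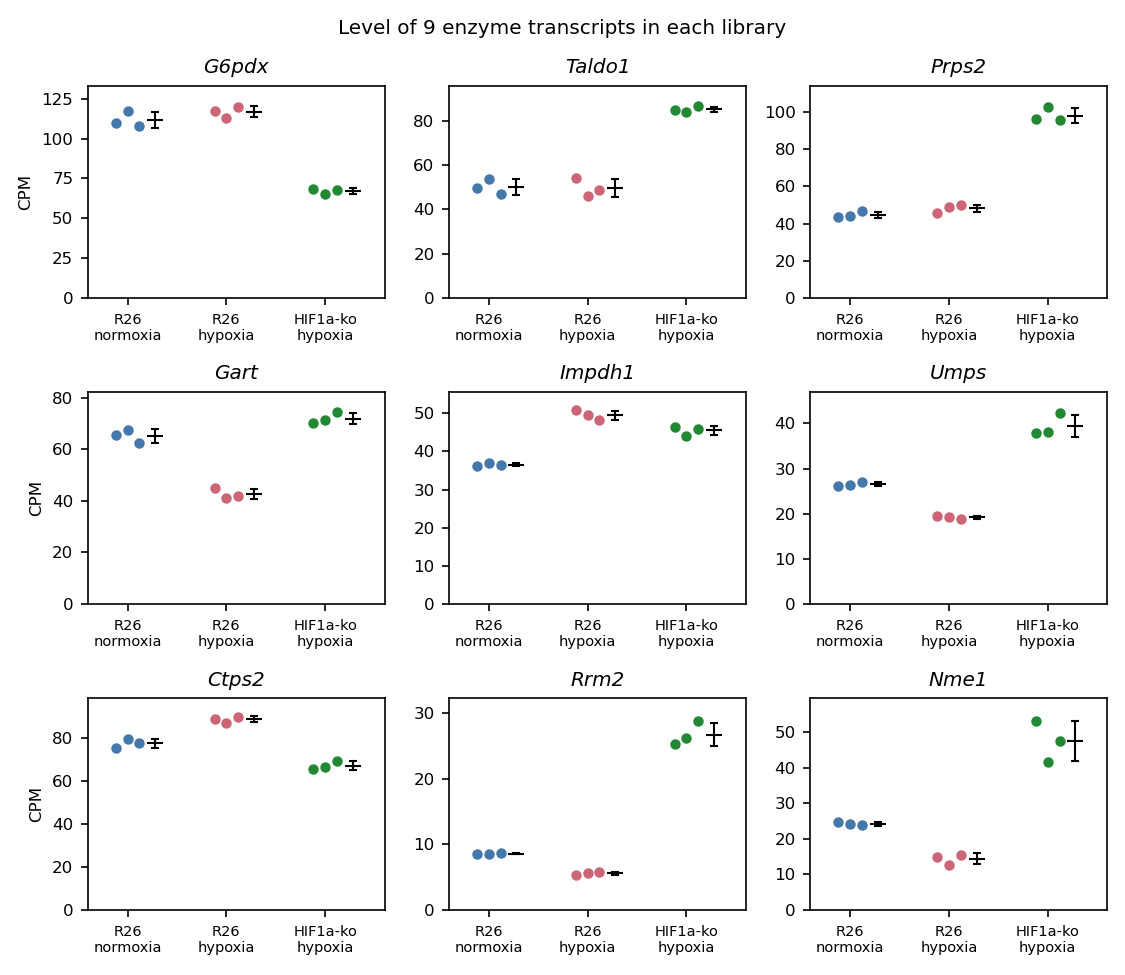
CPM (vertical axes, from 0) of 9 of the genes in each library, by group; points are libraries and black bars the mean ± SD of 3. G6pdx is lowest and Taldo1, Prps2, Umps, Rrm2 and Nme1 are highest in HIF1a-ko hypoxia, while Impdh1 is above its R26 normoxia level in both hypoxic groups.

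All 9 genes of the deoxynucleotide branch were higher in HIF1a-ko hypoxia than in R26 hypoxia, with a median log2 fold change of 1.23. Over all genes, 22% were higher there. Rrm2, the small subunit of ribonucleotide reductase that is made in S phase (chr12:24708241-24714146), was at 8.5, 8.59 and 8.67 CPM across R26 normoxia, 5.29, 5.57 and 5.84 in R26 hypoxia, and 25.3, 26.1 and 28.7 in HIF1a-ko hypoxia. The groups were separate, with the knockout libraries several-fold above the rest. The 4.79-fold difference between HIF1a-ko hypoxia and R26 hypoxia was the largest of the 33 genes (2.26 ± 0.07, edgeR adjusted p = 5.88e-08), and R26 hypoxia lay 1.54-fold below R26 normoxia (-0.62 ± 0.07, adjusted p = 0.000313). Rrm1, the large subunit, was at 162.6, 154.2 and 168.8 CPM across R26 normoxia, 163.1, 163.6 and 184.4 in R26 hypoxia, and 338.4, 328 and 340.4 in HIF1a-ko hypoxia. It did not pass between the control groups (0.07 ± 0.06, adjusted p = 0.428), which overlap, and rose 1.97-fold in the knockout (adjusted p = 1.34e-06). Rrm2b, the small subunit known from p53 responses and from cells that do not divide, was at 26.1 to 28, 21.9 to 28.1 and 28.3 to 34.5 CPM. Its rise over R26 hypoxia (0.32 ± 0.10, adjusted p = 0.0275) was lost without R26 hypoxia replicate 1 or 3 or HIF1a-ko hypoxia replicate 2 (adjusted p 0.0704 to 0.104). Per exon length (2771 bases for Rrm2, 9134 for Rrm2b), Rrm2 made up 51% ± 1.02 (SD, n = 3) of the pair in R26 normoxia. Its share was 42.8% ± 2.87 in R26 hypoxia and 74.1% ± 2.42 in HIF1a-ko hypoxia. Without length, Rrm2b was the higher in all 3 groups, at mean CPM of 27.2, 24.7 and 30.8 against 8.59, 5.57 and 26.7.

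Tyms, which methylates dUMP to thymidylate (chr5:30058202-30073617), was at 13.5, 13.5 and 12.6 CPM across R26 normoxia, 9.7, 10 and 9.93 in R26 hypoxia, and 23.9, 21 and 24.5 in HIF1a-ko hypoxia. It fell 1.34-fold (-0.42 ± 0.07, adjusted p = 0.00299) and was 2.34-fold higher in the knockout than in R26 hypoxia (1.23 ± 0.07, adjusted p = 1.22e-06). Dtymk, the next kinase, took the same course with a 1.26-fold fall (adjusted p = 0.00829) and a 1.93-fold rise (adjusted p = 5.21e-06). Dut, which keeps uracil out of DNA by cleaving dUTP, was at 22.9, 23 and 23.8 CPM in HIF1a-ko hypoxia, above 9.46, 10 and 8.86 in R26 hypoxia (2.46-fold, adjusted p = 4.54e-07). Its fall from 11.5, 11.6 and 11.2 CPM in R26 normoxia (-0.28 ± 0.06, adjusted p = 0.0127) did not pass in the 6 shallower libraries alone (-0.23, adjusted p = 0.0688) or in a fit of the 2 groups (-0.25, adjusted p = 0.0668).

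Dctpp1, which removes damaged and surplus dCTP, varied with depth. It was at 5.87, 6.94 and 3.6 CPM across R26 normoxia, 4.48, 3.72 and 1.68 in R26 hypoxia, and 8.19, 9.66 and 10.3 in HIF1a-ko hypoxia. The deeper library was the lowest of each group, at 0.562, 0.41 and 0.82 of the mean of the others. HIF1a-ko hypoxia was above all R26 libraries and differed from R26 hypoxia (1.52 ± 0.35, adjusted p = 0.0056). Dctpp1 did not pass between the control groups (-0.74 ± 0.35, adjusted p = 0.161), nor between HIF1a-ko hypoxia and R26 normoxia (0.78 ± 0.34, adjusted p = 0.0981). In the 6 shallower libraries alone both passed, at -0.63 (adjusted p = 0.00353) and 0.66 (adjusted p = 0.000755). With R26 hypoxia replicate 3 left out the second passed too (0.78, adjusted p = 0.0186).

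The nucleoside kinases of salvage rose in the knockout without a call between the control groups. Dck, which phosphorylates deoxycytidine and several nucleoside drugs (chr5:88764996-88783281), was at 7.37, 7.78 and 9 CPM across R26 normoxia, 7, 8.04 and 9.09 in R26 hypoxia, and 23.8, 21.5 and 25.2 in HIF1a-ko hypoxia. The control groups covered the same range, with group means of 8.05 and 8.04, and the knockout libraries stood far above. Dck was 2.91-fold higher in HIF1a-ko hypoxia than in R26 hypoxia (1.54 ± 0.12, edgeR adjusted p = 5.56e-06). Tk1, the thymidine kinase of dividing cells, was at 26.5 to 28.5, 23.8 to 25.5 and 43.8 to 51 CPM, a 1.95-fold rise over R26 hypoxia (adjusted p = 3.84e-06). Nme1, which balances all nucleoside triphosphates (chr11:93956979-93968521), was at 24.9, 24.3 and 23.8 CPM across R26 normoxia, 14.9, 12.7 and 15.6 in R26 hypoxia, and 53.2, 41.8 and 47.6 in HIF1a-ko hypoxia. Its 1.69-fold fall in R26 hypoxia was the largest called fall in that comparison (-0.75 ± 0.10, adjusted p = 0.000714), and it was 3.29-fold higher in the knockout (1.72 ± 0.10, adjusted p = 1.19e-06). The transcript model Gm20390 shares 418 exon bases with Nme1 on the same strand.

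The paralog shares were compared by an exact permutation test over libraries, two-sided, in 12 tests. With 3 libraries against 3 this exact test cannot go below p = 0.1. In 10 of the 12 the exact p was at that value (adjusted p = 0.12) and the groups did not overlap. The largest differences were those of the Rrm2 share in HIF1a-ko hypoxia, at 31.3 percentage points against R26 hypoxia and 23.1 against R26 normoxia. The Ctps share followed, at 18.6 points between HIF1a-ko hypoxia and R26 hypoxia. The Prps1 share in that comparison (-2.17 points) and the Impdh1 share between HIF1a-ko hypoxia and R26 normoxia (-1.14 points) overlapped, with exact p = 0.3. None passed 0.05 after adjustment, which this design could not reach.

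**Figure D4:**
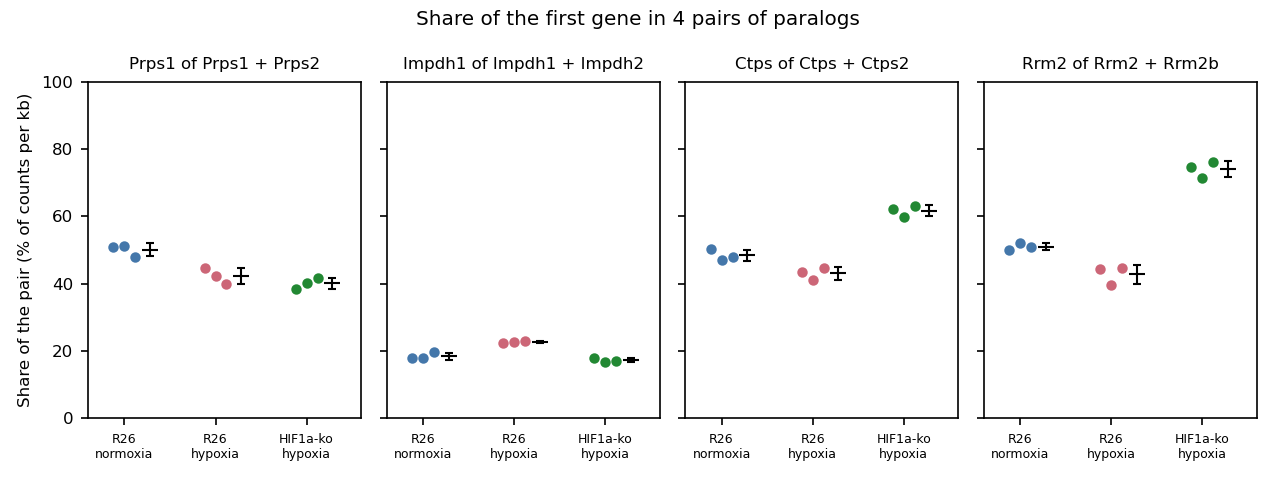
Share of the first gene in 4 paralog pairs (percent of the pair's CPM per kb of exon) in each library, by group; points are libraries and bars the mean ± SD of 3. The Rrm2 share is 71.4 to 76.1% in HIF1a-ko hypoxia and 52% or less in every R26 library.

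Per exon length in R26 normoxia, Paics was followed by Impdh2 (49.3 ± 3.68 CPM per kb, SD, n = 3) and then by 4 pentose phosphate enzymes, G6pdx (36.3 ± 1.62), Pgd (26 ± 1.96), Tkt (25.3 ± 0.758) and Taldo1 (23.1 ± 1.6). Pgd and Tkt do not differ beyond their spread. At the low end stood Tyms (2.17 ± 0.0826), Dck (2.13 ± 0.224) and Dhodh (1.75 ± 0.0327), of which the first 2 do not differ beyond their spread. This order depends on the merged exon lengths and is not one of transcript number. Rrm1, at 161.9 CPM over 11012 bases, ranked 10. Tyms stood below Rrm2 (3.1 CPM per kb), though its mean CPM was higher (13.2 against 8.59). In HIF1a-ko hypoxia Taldo1, at 39.2 ± 0.614 CPM per kb, was above G6pdx at 21.8 ± 0.586, the reverse of their order in both control groups.

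Other genes of nucleotide and pentose metabolism, next to the 33 in the pathways, were about evenly divided in direction. Of 65 tested, 10 rose and 14 fell in R26 hypoxia against R26 normoxia, 18 rose and 20 fell in HIF1a-ko hypoxia against R26 hypoxia (median 0.00), and 18 rose and 16 fell in HIF1a-ko hypoxia against R26 normoxia. Over all genes, 12.8% rose and 12.4% fell in the first of these comparisons, 22% and 23.8% in the second, and 19.5% and 21.9% in the third. Among the 8 folate enzymes, which supply carbon units for purines and thymidylate, 5 rose and 3 fell in HIF1a-ko hypoxia against R26 hypoxia. Mthfd2 was at 14.3, 12.5 and 14.3 CPM in R26 hypoxia and 111, 105.7 and 124.2 in HIF1a-ko hypoxia (8.28-fold, adjusted p = 5.33e-08). Ak4, a mitochondrial adenylate kinase, took the opposite course to genes such as Umps and Rrm2, rising 9.39-fold in R26 hypoxia (adjusted p = 5.08e-06) and standing 5.24-fold lower in HIF1a-ko hypoxia (adjusted p = 4.09e-06). Nme2, the neighbour and paralog of Nme1, was 2.41-fold higher in HIF1a-ko hypoxia than in R26 hypoxia (adjusted p = 0.000166).

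Genes of DNA replication and division were higher in HIF1a-ko hypoxia, as most of the enzymes were. All 20 listed were higher in HIF1a-ko hypoxia than in R26 hypoxia (median log2 fold change 1.94), and all 20 were higher than in R26 normoxia (median 1.77). Over all genes, 22% and 19.5% were higher in the same comparisons. Between the control groups 2 rose, 7 fell and 11 did not pass. Mcm5, a helicase subunit, was at 34.3, 34.7 and 37.7 CPM across R26 normoxia, 19.1, 17.1 and 20.5 in R26 hypoxia, and 121.8, 116.7 and 135.2 in HIF1a-ko hypoxia, separate groups in the same order as those of Rrm2 and Umps. Mki67, the proliferation marker, rose between the control groups (0.43 ± 0.11, adjusted p = 0.0169), where Pcna fell (-0.58 ± 0.11, adjusted p = 0.00461). The part of these genes in the rises of the nucleotide enzymes was not tested. The 15 glycolytic enzymes listed for comparison all rose in R26 hypoxia (median 1.69) and were all lower in HIF1a-ko hypoxia than there (median -1.29), opposite in sign to the medians of the 33 enzymes, -0.14 and 0.74.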

How the data were processed

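Poly-A RNA was sequenced from 9 libraries in 3 groups. The authors deposited 1 table of raw counts per gene, made from reads on GRCm38. The submitters' processing notes name bcl2fastq 2.17, Trimmomatic, STAR, featureCounts and DESeq2. Settings, annotation release and the handling of strand and of reads with several matches: not given in the sources used here. Total counts set the precision and ranged from 43837809 to 107840223.

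Identifiers were named from a gene table, and 345 of 49315 had no symbol. Counts were normalized by TMM (CPM on these library sizes), filtered with filterByExpr and tested in 1 fit of all 9 libraries with edgeR 4.0.16 (glmQLFit, glmQLFTest, two-sided, limma 3.58.1, R 4.3.3). P-values were adjusted by Benjamini-Hochberg over 18211 genes, with a threshold of 0.05. In counts simulated for R26 hypoxia against R26 normoxia, 97% of 33 genes (not the enzymes) changed 4-fold at a mean log2 CPM of at least 1 were called. Of all calls, 4.96% were false (17786 genes). The 97% does not tell how often smaller changes are called, and the largest called change of an enzyme in that comparison was 1.69-fold (Nme1). Python 3.11.15 was used for summaries. Exon lengths and coordinates come from GENCODE M21 on GRCm38, and sequences from RefSeq on GRCm38.p6.

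The enzymes and lists were chosen with earlier results of these data known. Besides the 33, the text names up to 3 called genes a list and comparison with the largest change at a mean log2 CPM of at least 1, together with Mki67, Pcna, Mcm5, Ak4 and Hif1a. Some genes that the rule allows are not reported here. Pnp, in a list, was not matched and is not analysed here.

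Same-numbered libraries of the control groups deviated together (correlations 0.48, 0.53 and 0.855), all 3 positive, so the replicate block is given beside that comparison. Unlike-numbered shallower libraries did so as much (0.498 and 0.587), and the deeper libraries of all 3 groups correlated at 0.828 to 0.855, so the check does not separate number from depth. The labels do not say what a number marks. Any pair of libraries within a group had a chi-square of at least 6.73 per degree of freedom, above sampling noise. Alternatives were DESeq2 1.42.0, its size factors, no filter, the replicate block, depth class as a term, the 6 shallower libraries, fits of 2 groups, each library left out, and a minimum fold of 1.5.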

Additional observations from a re-analysis of the deposited data

How the results depend on the processing

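Of 1683 values of the 33 genes under the alternatives, 1583 kept their direction and their side of the threshold, 52 were no longer called, 24 became called and 24 changed sign, all of these uncalled and near 0 between the control groups. A minimum of 1.5-fold left 3 enzymes changed in R26 hypoxia against R26 normoxia (0 higher, 3 lower), 1 lower in HIF1a-ko hypoxia against R26 hypoxia, and 12 changed in HIF1a-ko hypoxia against R26 normoxia (11 higher, 1 lower). The share of all genes at that fold was not counted. With the replicate block in the 2 control groups 4 were higher, and Hif1a passed between them at -0.12 (adjusted p = 0.0173), as it did with depth class as a term at -0.14 (adjusted p = 0.0425); the cause was not tested. Same-numbered libraries of the knockout and either control group correlated from -0.667 to 0.587, so the numbers do not pair them. With the block in 2-group fits, 27 enzymes were called against R26 hypoxia and 23 against R26 normoxia. Of all genes, the first fit had 3204 higher and 3557 lower of 17657, and the second 2997 and 3243 of 17669. Between the control groups, Taldo1 (reported at -0.01) was 0.01 with no filter, in the fit of 2 groups and with the block, and -0.07 to 0.04 with a library left out. Pfas (0.01) was -0.05 to 0.09 with a library left out, below 0 without R26 normoxia replicate 1 or 2 or R26 hypoxia replicate 3. Dck (-0.00) was 0.00 with DESeq2, its size factors or depth class, 0.01 in the shallower libraries, 0.02 with no filter, in the fit of 2 groups and with the block, and -0.10 to 0.10 with a library left out. With each library left out, the calls numbered 16 in each case in R26 hypoxia against R26 normoxia, 26 to 29 in HIF1a-ko hypoxia against R26 hypoxia and 24 to 28 in HIF1a-ko hypoxia against R26 normoxia. Of the 18561 to 18773 genes tested in these fits, the first comparison had 1667 to 2359 higher and 1555 to 2151 lower. The second had 3485 to 4186 higher and 3576 to 4214 lower, and the third 3019 to 3797 and 2999 to 4198. All 33 had 100 counts or more in every library, but the Dctpp1 calls between the control groups and against R26 normoxia depended on how depth was handled.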

Other observations

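Enzymes that break down nucleotides and bases lay outside the 33 and included genes that changed in either direction. Gda, which deaminates guanine, was at 45.4, 53.3 and 40.9 CPM in R26 hypoxia and 21, 24.9 and 21.3 in HIF1a-ko hypoxia, separate ranges that differed 2.08-fold (edgeR adjusted p = 4.52e-05). Xdh, which makes uric acid, was at 541.8, 558.2 and 520.6 CPM against 304, 322.8 and 278.3 in the same groups (1.79-fold lower, adjusted p = 4.57e-06). Dctd, the deaminase that turns dCMP into the substrate of Tyms, had the opposite sign: it fell 1.9-fold in R26 hypoxia against R26 normoxia (adjusted p = 4.21e-05) and was 2.12-fold higher in HIF1a-ko hypoxia than in R26 hypoxia (adjusted p = 2.78e-06). Of the 18 genes tested in this list, 3 rose, 5 fell and 10 did not pass between HIF1a-ko hypoxia and R26 hypoxia.

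Ampd3, which deaminates AMP, was higher at low oxygen with either guide. It was at 2.15, 2.86 and 2.47 CPM across R26 normoxia, 6.09, 6.27 and 5.97 in R26 hypoxia, and 6.96, 7.76 and 6.21 in HIF1a-ko hypoxia. It rose 2.45-fold in R26 hypoxia (adjusted p = 0.000147) and did not pass between the hypoxic groups (0.19 ± 0.13, adjusted p = 0.256). Tk2, the mitochondrial thymidine kinase, was 1.57-fold lower in HIF1a-ko hypoxia than in R26 hypoxia (adjusted p = 0.000131), where Tk1 was higher.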
